A study of Mus musculus with 7 samples.

Results

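*Stra8* and *Meiosin* were examined in bulk RNA-seq of testes enriched for preleptotene spermatocytes, the germ cells that are about to begin meiosis. Both genes were chosen by name, as the pair that encodes the STRA8-MEIOSIN transcriptional regulator, and they are 2 of the 21928 genes to which the deposited transcripts were matched. The tables held 3 transcripts of *Stra8* and 1 of *Meiosin*, which they carry under its former name *Gm4969*, among 43139 transcripts. There were 4 wild-type and 3 *Meioc*-null libraries, all from C57BL/6N pups, and the null pups carried the allele *Meioc* tm1.1Dpc. Each library was prepared from 1.5 testes of 1 pup, and the labels call the libraries of a genotype biological replicates. Pups of both genotypes received WIN 18,446, which blocks the synthesis of retinoic acid, at 0.1 mg per g of body weight each day from P2 to P8, then retinoic acid at 0.0125 mg per g on P9. The testes were taken 6.75 days later, when germ cells that had responded to retinoic acid together were at the preleptotene stage. The ERCC spike-in mix differed between the genotypes and was not used.

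Retinoic acid switches on *Stra8* and *Meiosin* in germ cells that are competent to enter meiosis. The STRA8 and MEIOSIN proteins bind each other and activate genes for the chromosome axis, recombination and the meiotic cell cycle, and mice that lack either protein do not enter meiosis normally. MEIOC acts in a complex with YTHDC2 and RBM46, which bind RNA, and this complex controls mRNA abundance at the same stage.

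Libraries held 12537852 to 20552702 estimated counts, at which 3 counts correspond to 0.151 to 0.237 CPM (counts scaled to library size and by TMM). Germ cell and Sertoli cell markers were read in every library, whereas *Pgk2* and *Acr*, which are expressed in later spermatocytes and spermatids, were below 0.3 CPM on average in both genotypes. *Meioc* itself was read at 468 to 720 CPM in wild type and at 300 to 413 CPM in the null, so transcript of the targeted gene was still counted there. Wild-type replicate 1 had a correlation of log2 CPM across genes of 0.986 with wild-type replicate 2 and of 0.985 with *Meioc*-null replicate 1, so it stood about as near to a null library as to its own group. Null replicate 1 likewise had 0.985 with wild-type replicate 1, against 0.982 with null replicate 2 and 0.987 with null replicate 3. The gene fold changes of *Stra8* and *Meiosin* are given with and without each of these libraries. Likeness to other genes and values per germ cell marker count are given with all libraries only.

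*Meiosin* was several fold higher in wild type, and its genotypes did not overlap. The gene, also listed in RefSeq as *Bhmg1*, lies at chr7:19099046-19118368 of GRCm38 on the reverse strand. Its promoter window, from 250 bases before to 50 bases after the start, is shown because the gene changed most clearly with genotype. A further reason is that E2F6 and MGA, which recognise E2F and E-box sequences, are described as its repressors in mouse embryonic stem cells. The sequence is that of RefSeq for GRCm38.p6, chr7:19118295-19118594 on the reverse strand, with the motif matches in capitals.
*Meiosin* promoter: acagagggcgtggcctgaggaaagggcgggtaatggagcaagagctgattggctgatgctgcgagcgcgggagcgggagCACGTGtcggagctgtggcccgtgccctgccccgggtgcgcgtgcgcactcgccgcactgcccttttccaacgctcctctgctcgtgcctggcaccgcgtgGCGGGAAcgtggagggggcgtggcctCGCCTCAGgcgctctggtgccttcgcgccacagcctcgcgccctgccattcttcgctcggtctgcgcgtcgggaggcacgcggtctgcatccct
The capitals mark an E-box (CACGTG) that begins 171 bases before the start, an E2F motif (GCGGGAA) at 70 bases and a match to the STRA8 motif (CNCCTCAG) at 44 bases. Among 32851 RefSeq promoters of the same length, 7.15% held the E-box, 4.60% the E2F motif and 7.94% the STRA8 motif on either strand, and 11 (0.0335%) held all 3. A T-box motif (AGGTGTGA), which 1.28% of the promoters held, was in neither the *Meiosin* nor the *Stra8* window. The *Meiosin* window was 70.3% G or C with 35 CpG dinucleotides, against medians of 52.7% and 7 over all promoters. The promoters were not matched to it in these respects, so the shares above may differ among windows of like composition. These matches describe the letters of the window only, and binding was not measured here.

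*Meiosin* was counted at 144, 229, 266 and 251 CPM in wild-type replicates 1 to 4. In *Meioc*-null replicates 1 to 3 it was counted at 33.9, 27.2 and 24.9 CPM. The lowest wild-type pup, replicate 1, was therefore 4.24 times as high as the highest null pup, replicate 1, while the highest pup was 1.85 times the lowest within wild type and 1.36 times within the null. Wild type averaged 222 ± 54.6 CPM (SD, n = 4) against 28.7 ± 4.67 CPM (SD, n = 3), and the log2 fold change, wild type over null, was 2.95 (SE 0.22, adjusted p = 0.00058, edgeR quasi-likelihood test, Benjamini-Hochberg adjusted). *Meiosin* was thus called, as were 11.1% of the 13630 genes tested, 7.77% of them as higher in wild type. Its signed log2 fold change, counted from the highest in wild type, ranked 19 and its two-sided p-value ranked 3 among those genes. The CPM of the genotypes did not overlap for 26.2% of the genes tested. The null libraries still held 376 to 635 estimated counts of *Meiosin*, far above 3 counts, so the transcript remained detectable in each null pup. In bulk tissue, fewer cells that express the gene and less RNA per cell cannot be told apart.

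Expressed per transcript length, *Meiosin* stood at 127, 179, 211 and 201 TPM (an abundance that accounts for transcript length and sums to a fixed total in each library) in the wild-type pups and at 31.6, 28.6 and 22.9 TPM in the null pups. Ranked by mean TPM among the tested genes, it moved from the 94.9th percentile in wild type to the 58.8th in the null. On this scale the wild-type mean was 180 ± 37.3 TPM (SD, n = 4) and the null mean was 27.7 ± 4.43 TPM (SD, n = 3). TPM gives a log2 fold change of 2.64 on log2(TPM + 1), a scale on which the median of all tested genes lay at -0.23 rather than at -0.0065 as in the TMM-scaled counts. Relative to these medians the difference in *Meiosin* was of like size on both scales.

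**Figure D1:**
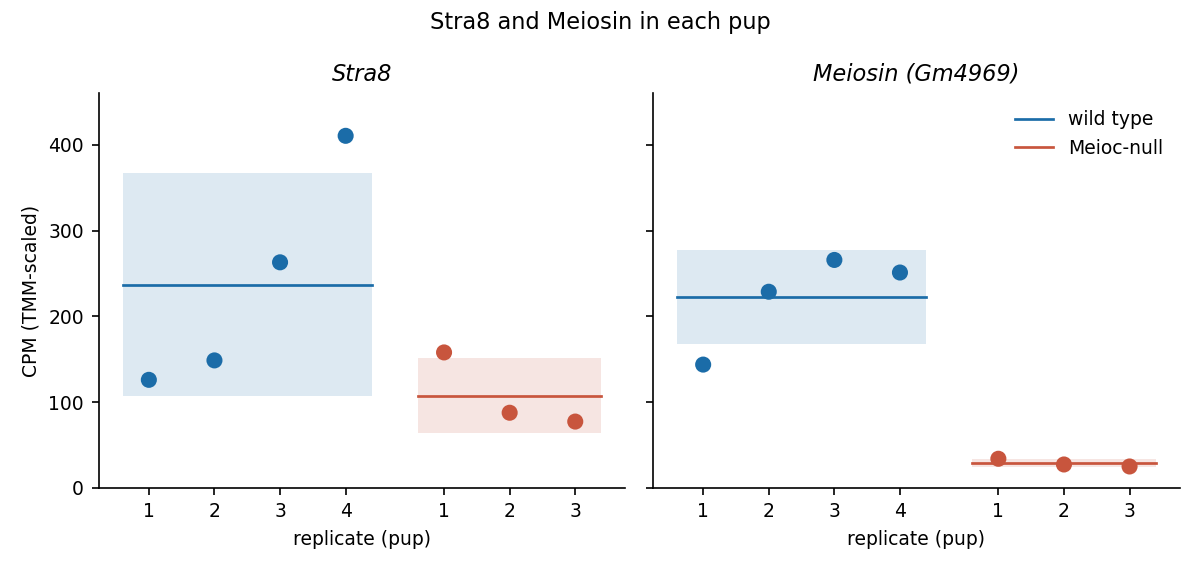
CPM of *Stra8* (left) and *Meiosin* (right) in each pup, with wild-type pups in blue and *Meioc*-null pups in red; lines are group means and shaded bands are ± 1 SD (n = 4 and n = 3). The *Meiosin* points of the genotypes are separate, with 144 CPM the lowest in wild type and 33.9 CPM the highest in the null, whereas *Stra8* in null replicate 1 (158 CPM) lies above wild-type replicates 1 and 2.

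*Stra8* was higher in wild type on average, but the genotypes overlapped and the difference did not pass the threshold. The gene lies at chr6:34920163-34939344 of GRCm38 on the forward strand. Its promoter window is shown for comparison with that of *Meiosin*, from RefSeq for GRCm38.p6 at chr6:34920698-34920997 on the forward strand, again with motif matches in capitals.
*Stra8* promoter: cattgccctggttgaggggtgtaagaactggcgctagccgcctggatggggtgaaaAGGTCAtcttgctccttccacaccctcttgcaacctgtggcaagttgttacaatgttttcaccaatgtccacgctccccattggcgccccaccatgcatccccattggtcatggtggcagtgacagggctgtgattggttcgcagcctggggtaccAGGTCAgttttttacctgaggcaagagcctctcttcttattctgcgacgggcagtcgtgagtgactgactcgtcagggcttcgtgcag
The capitals mark 2 copies of the half-site to which retinoic acid receptors bind (AGGTCA), which begin 194 and 38 bases before the start. Of the 32851 promoters, 16.3% held this half-site on either strand. The *Stra8* window was 55.7% G or C with 10 CpG dinucleotides, near the medians, and it held none of the E-box, E2F and STRA8 motifs searched. The *Meiosin* window held no AGGTCA. These matches too describe letters only, and neither binding nor response to retinoic acid was measured from them.

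*Stra8* was counted at 126, 149, 263 and 411 CPM in wild-type replicates 1 to 4. In *Meioc*-null replicates 1 to 3 it was counted at 158, 87.6 and 77.3 CPM. Null replicate 1 thus lay above wild-type replicates 1 and 2, while the other two null pups lay below every wild-type pup. Wild type averaged 237 ± 130 CPM (SD, n = 4) against 108 ± 43.9 CPM (SD, n = 3) in null pups. This gave a log2 fold change of 1.14 (SE 0.40), an unadjusted p of 0.0188 and an adjusted p of 0.0948 (edgeR quasi-likelihood test, Benjamini-Hochberg adjusted). The estimate ranked 235 of 13630 by signed value, counted from the highest in wild type, and 2707 by two-sided p-value. *Stra8* varied more between pups of a genotype than most genes. Its coefficient of variation was 55.0% in wild type and 40.8% in the null, at the 99.7th and the 98.7th percentile of the 2666 genes that averaged 100 CPM or more, whose medians were 6.12% and 8.65%. The coefficient of variation of *Meiosin* was 24.5% in wild type and 16.3% in the null, at the 98.0th and the 86.7th percentile of the same genes. The fitted biological coefficient of variation, the spread between pups that edgeR estimates over both genotypes, was 0.359 for *Stra8* and 0.188 for *Meiosin*, against a median of 0.104 over those 2666 genes.

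The size of the *Stra8* difference depended on individual pups. With each library left out in turn, its log2 fold change lay between 0.72, without wild-type replicate 4, and 1.53, without *Meioc*-null replicate 1. The gene was called in 1 of these 7 fits, that without wild-type replicate 1, at 1.35 with an adjusted p of 0.0409, and the highest adjusted p among the 7 was 0.249 (edgeR quasi-likelihood test, Benjamini-Hochberg adjusted). *Meiosin* was called in all 7 fits at log2 fold changes of 2.86 to 3.11, with adjusted p-values of 2.08e-05 to 0.00926 by the same test. Without wild-type replicate 1 its log2 fold change was 3.11, and without null replicate 1 it was 3.09.

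**Figure D2:**
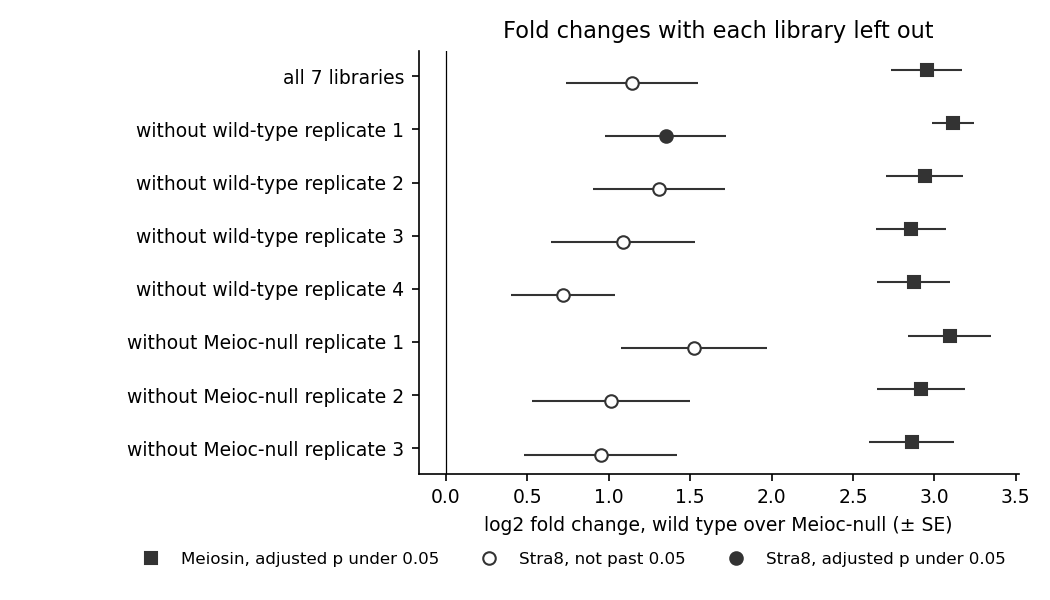
Log2 fold change (wild type over *Meioc*-null, ± SE) of *Meiosin* (squares) and *Stra8* (circles) with all 7 libraries and with each library left out; filled symbols have an adjusted p under 0.05 in edgeR's quasi-likelihood test. *Meiosin* stays between 2.86 and 3.11, and *Stra8* moves from 0.72 to 1.53 and is filled only without wild-type replicate 1.

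*Stra8* was read from 3 annotated transcripts, and the junctions that tell them apart are shown because the division of counts between them rests on these sequences. All 3 lie on the forward strand of chromosome 6. Stra8-201 (ENSMUST00000031876.11, 1803 bases in 10 exons) has an upstream first exon and a long second exon that spans the promoter window. Stra8-203 (ENSMUST00000114999.7, 1455 bases in 9 exons) begins inside that second exon and has the same coding sequence of 393 codons. Stra8-202 (ENSMUST00000114997.2, 1207 bases in 8 exons) also begins there and skips the next exon, at chr6:34927719-34927916, which holds the start codon of the other two. In the junction sequences below, taken from the GENCODE vM21 transcripts, lower case marks the upstream exon and capitals the downstream exon.
Stra8-201, exon ends at 34920185 and 34920637: agcagctcacctcagGGGACTGCTACTGGG
Stra8-203, exon ends at 34921054 and 34927719: gtggtggccttaaagATTATAATGGCCACC
Stra8-202, exon ends at 34921054 and 34930361: gtggtggccttaaagTGGCAGGTACTGAAT
The junction printed for Stra8-203 is shared with Stra8-201. The coding part of the skipped exon is 192 bases long, at chr6:34927725-34927916, with its start codon in capitals.
Skipped coding exon: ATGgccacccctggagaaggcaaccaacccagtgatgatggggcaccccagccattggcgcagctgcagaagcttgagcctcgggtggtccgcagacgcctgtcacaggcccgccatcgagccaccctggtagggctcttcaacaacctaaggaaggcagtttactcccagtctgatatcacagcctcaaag
The annotated coding sequence of Stra8-202 instead begins at a later ATG, at position 34930948 of chromosome 6, in capitals here.
First 30 coding bases of Stra8-202: ATGtattccgagaatgacagtgtattccta
This start lies in the frame of the longer form and leaves 282 codons, 111 fewer.

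The transcripts differed in how directly the reads identify them. kallisto assigns reads through words of 31 bases, and of the words of *Stra8*, 348 occurred in Stra8-201 alone, 26 in Stra8-202 alone and none in Stra8-203 alone. Another 274 were shared by Stra8-201 and Stra8-203, and 1150 by all 3. Values for Stra8-203 therefore follow from what the other two transcripts leave, and values for Stra8-202 rest on the 26 words across its exon-skipping junction and on the depth of the skipped exon. Each transcript also shared 12 words with other genes, which were *Fam124a*, *Trap1a* and *Rhox8*. All 1862 words of the *Meiosin* transcript (ENSMUST00000141380.2, 1892 bases in 14 exons, 566 codons) occurred in that transcript alone, and its estimated counts were whole in all 7 libraries.

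Stra8-203 was the most abundant form in every pup. It stood at 136, 104, 230 and 374 TPM in the wild-type pups and at 167, 120 and 95.9 TPM in the null pups. The genotypes overlapped, and its log2 fold change of 0.94 (SE 0.48) did not pass the threshold (adjusted p = 0.374, edgeR quasi-likelihood test, Benjamini-Hochberg adjusted over 21920 transcripts). Its share of *Stra8* TPM was 67.9% ± 9.33 (SD, n = 4) in wild type and 79.8% ± 8.55 (SD, n = 3) in the null, a difference of -11.9 percentage points (p = 0.171, two-sided exact permutation test over 35 splits). With 4 pups against 3 this test cannot go below 0.0571, so it cannot pass 0.05.

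Stra8-201, the form with the upstream exon, stood at 29.7, 33.9, 64.4 and 90.5 TPM in the wild-type pups. In the null pups it stood at 35.2, 23.0 and 15.3 TPM, so null replicate 1 was above wild-type replicates 1 and 2, as for the gene as a whole. The log2 fold change was 1.38 (SE 0.50, adjusted p = 0.233, edgeR quasi-likelihood test, Benjamini-Hochberg adjusted). Its share of *Stra8* TPM varied little between pups of a genotype, from 16.7% to 19.3% in wild type and from 13.8% to 15.8% in the null, and these ranges did not overlap. The difference was 2.96 percentage points, with the smallest p the design allows, 0.0571, or 0.171 after Benjamini-Hochberg adjustment over the 3 transcripts (two-sided exact permutation test). Only the share of the most abundant transcript had been planned as a test.

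Stra8-202, the form without the first coding exon, was at or near 0 in the other two null pups but not in replicate 1. It stood at 12.4, 52.9, 38.9 and 59.0 TPM in the wild-type pups and at 36.2, 1.57 and 0 TPM in the null pups. Null replicate 1 held 353 estimated counts of this form, within the wild-type range of 85.3 to 709.6, whereas null replicate 2 held 9.99 and null replicate 3 was listed at 0. An estimate of 0 can come from the division of shared reads as well as from absence of the transcript. Shares of *Stra8* TPM ranged from 6.95% to 27.7% in wild type and were 15.2%, 1.08% and 0% in the null (p = 0.229, two-sided exact permutation test). Its log2 fold change was 1.89 (SE 1.57, adjusted p = 0.601), and without null replicate 1 it was 6.15 with an adjusted p of 0.119 (edgeR quasi-likelihood test, Benjamini-Hochberg adjusted). The *Meiosin* transcript was called at a log2 fold change of 2.93 (SE 0.25, adjusted p = 0.0346 by the same test), where 0.0639% of all transcripts tested, 14 of 21920, were called, 0.0547% as higher and 0.00912% as lower in wild type. That call was lost without wild-type replicate 2 or 3 or without null replicate 2 or 3, with adjusted p-values of 0.122 to 0.162 and log2 fold changes of 2.84 to 2.92. The counts of this transcript are those of the gene, which was called in all 7 gene fits. The transcript fits took spread and adjustment from the 21920 transcripts instead of the genes.

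**Figure D3:**
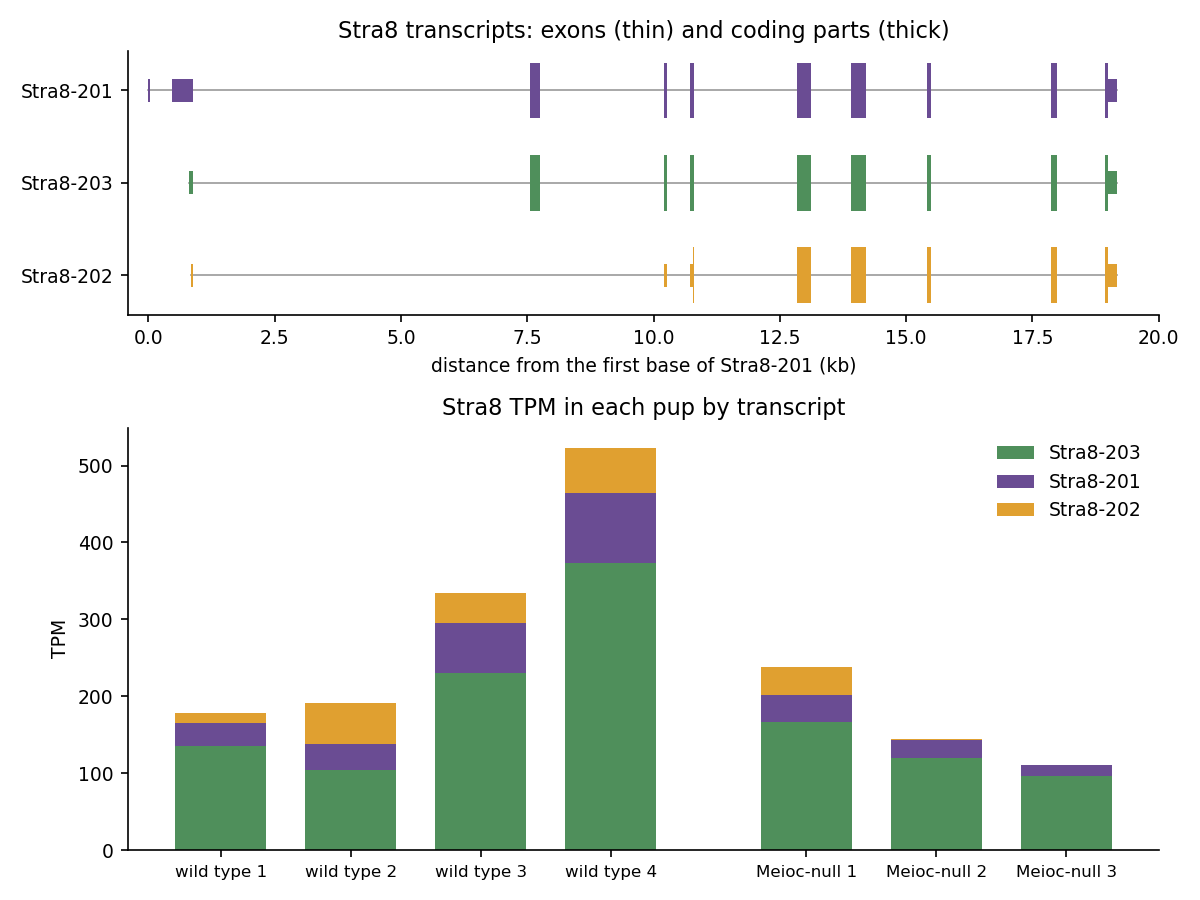
Top, exons of the 3 *Stra8* transcripts by distance from the first base of Stra8-201 in kb, with coding parts drawn thick; bottom, *Stra8* TPM in each pup stacked by transcript. Stra8-203 (green) makes up 54.6% to 86.2% of the gene, and Stra8-202 (yellow) is at 1.57 and 0 TPM in null replicates 2 and 3.

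In TPM, *Stra8* exceeded *Meiosin* in every pup, and the excess was larger in the null. The ratio of *Stra8* TPM to *Meiosin* TPM was 1.40, 1.07, 1.58 and 2.61 in wild-type replicates 1 to 4. In *Meioc*-null replicates 1 to 3 it was 7.53, 5.07 and 4.85. The 2 ranges did not overlap, and no scaling between libraries enters this ratio. The mean ratio was 1.66 ± 0.67 (SD, n = 4) in wild type and 5.82 ± 1.49 (SD, n = 3) in the null. On the log2 scale the ratio was lower in wild type by a difference of -1.86, so the null ratio was 3.62 times the wild-type ratio (p = 0.0571, two-sided exact permutation test, the smallest p that 35 splits allow). Left out one at a time, no library brought the difference outside -2.10 to -1.66. The order of the genes in wild type depended on the length used, because TPM divides by effective lengths that kallisto estimates in each library, and these fell further below the annotated length for *Stra8* transcripts than for *Meiosin*. With counts divided by annotated length the ratio was 1.10, 0.842, 1.24 and 2.06 in wild-type replicates 1 to 4 and 3.88 to 5.96 in the null, and the log2 difference was -1.87. The ratio of undivided counts was below 1 in wild-type replicates 1 to 3, from 0.650 to 0.990, and above 3 in every null pup.

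The 2 genes had the same order among the null pups, with replicate 1 highest and replicate 3 lowest in both. Among the wild-type pups, replicate 1 was lowest and replicate 2 next in both genes, but *Stra8* was highest in replicate 4 and *Meiosin* in replicate 3. The range of *Stra8* was wider than that of *Meiosin* in each genotype. The highest wild-type pup had 3.26 times the *Stra8* CPM of the lowest but only 1.85 times the *Meiosin* CPM, and in the null these ratios were 2.04 and 1.36. Wild-type replicates 2 and 3 differed by 149 against 263 CPM in *Stra8* but by 229 against 266 CPM in *Meiosin*.

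**Figure D4:**
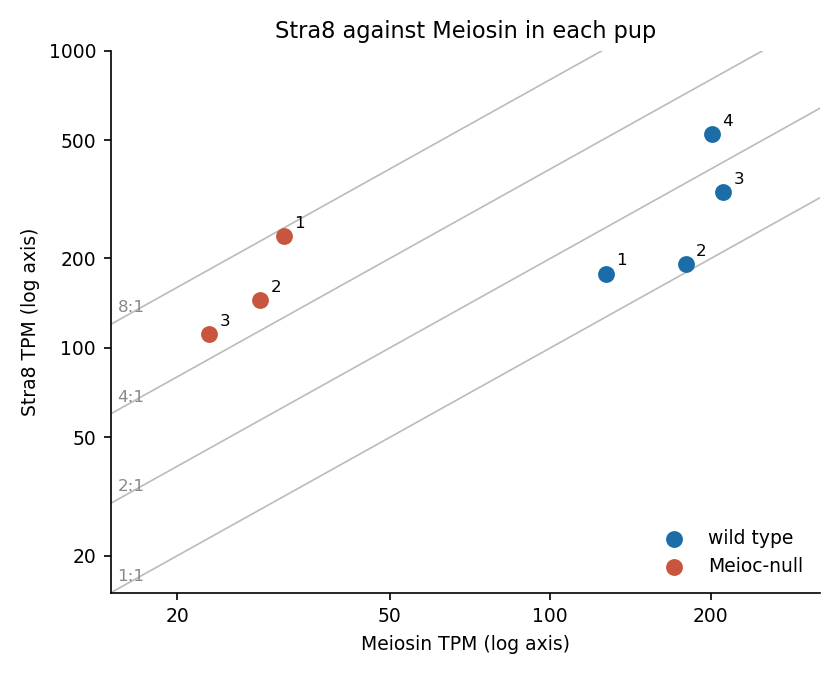
TPM of *Stra8* against TPM of *Meiosin* in each pup (both axes logarithmic; numbers are replicates), with grey lines at fixed *Stra8* to *Meiosin* ratios of 1, 2, 4 and 8. Wild-type pups (blue) lie at ratios of 1.07 to 2.61 and null pups (red) at 4.85 to 7.53, with *Stra8* overlapping and *Meiosin* not.

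The genes whose log2 CPM followed *Stra8* most closely over the 7 libraries were *Papss1* (Pearson r = 0.992), *Fxr2* (0.992), *Abat* (0.990), *Hist1h2bj* (0.984) and *Homer3* (0.981), out of 10244 other genes that averaged 10 CPM or more. *Papss1* encodes a synthase of the sulfate donor PAPS and *Fxr2* an RNA-binding protein of the fragile X family. Most of them followed the order of the *Stra8* values with a far smaller range, as *Papss1* went only from 70.5 to 86.3 CPM. *Hist1h2bj*, a histone H2B gene, went from 51.7 to 269 CPM, but 67.2% of the 433 words of its transcript also occurred in transcripts of 17 other genes, so the division of its counts is uncertain. *Meiosin* ranked 1339 in likeness to *Stra8*, with r = 0.765. These correlations describe 7 points in 2 genotypes.

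The genes most like *Meiosin* were *Mei1* (r = 0.999), *Stag3* (0.996), *Sdf2l1* (0.994), *Igf2r* (0.993) and *Pdpk1* (0.993), by the same measure. *Mei1* is needed for the DNA breaks of meiotic recombination and *Stag3* encodes a meiotic cohesin subunit. *Mei1* was counted at 60.9, 84.8, 100.3 and 94.5 CPM in the wild-type pups and at 25.6, 21.7 and 20.4 CPM in the null pups, the order of the *Meiosin* values in both genotypes. *Stra8* ranked 2031 in likeness to *Meiosin*. With the genotype means removed, the genes closest to *Meiosin* were *Cyp2s1* (r = 0.997), *Mei1* (0.996), *H2afx* (0.995), *Pole* (0.995) and *Gins3* (0.994). *Pole* and *Gins3* encode parts of the DNA replication machinery and *H2afx* the histone variant H2AX. On the same deviations the genes closest to *Stra8* were *Papss1*, *Homer3*, *Fxr2*, *Hist1h2bj* and *Nkiras2*, at r = 0.986 to 0.991. *Stra8* and *Meiosin* had r = 0.788 with each other on these deviations, ranks 639 and 766 of 10244. Likeness was not computed without wild-type replicate 1, which had 144 CPM of *Meiosin* against 229 to 266 CPM in the other wild-type pups.

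Genes that act upstream of *Stra8* and *Meiosin* were described as lists, read against the 7.77% of all tested genes called higher and the 3.33% called lower in wild type (edgeR quasi-likelihood test, Benjamini-Hochberg adjusted, as for every adjusted p of the lists). TPM gives another balance: by limma on log2(TPM + 1) 18.5% of the tested genes were called, 3.23% as higher and 15.3% as lower, around the all-gene median of -0.23. Of 7 genes for retinoic acid supply, 2 rose in wild type and none fell, with a median log2 fold change of 0.38. These were *Aldh1a2*, a retinoic acid synthase, at 0.77 (SE 0.12, adjusted p = 0.0106), and *Stra6*, a retinol transporter that is itself induced by retinoic acid, at 1.02 (SE 0.28, adjusted p = 0.0471). The *Stra6* call was held in 2 of the 7 fits that left out a library, and without *Meioc*-null replicate 3 neither gene was called. *Lrat*, *Rdh10*, *Aldh1a1* and *Aldh1a3* were not called, at 0.46, 0.38, 0.016 and -0.18. The median of this list was 0.076 without wild-type replicate 4, 0.23 without null replicate 3, 0.63 without null replicate 1 and 0.087 on log2(TPM + 1), where only *Aldh1a2* was called. Of 6 genes for retinoic acid removal and binding, 4 passed the filter and none was called. The degrading enzyme *Cyp26b1* was at -0.29 (SE 0.10, adjusted p = 0.0976) and *Crabp2*, which carries retinoic acid in the cell, was at 0.91 (SE 0.32, adjusted p = 0.0912), while *Crabp1* and *Dhrs3* were at -0.033 and -0.073. Left out one at a time, wild-type replicate 1 gave a call for *Crabp2* and null replicate 1 one for *Cyp26b1*. Among 6 receptor genes, 4 passed the filter, of which *Rxra* fell, at -0.46 (SE 0.12, adjusted p = 0.0415, called in 2 of the 7 fits), and *Rara*, *Rarg* and *Rxrb* were not called, at -0.16, -0.24 and 0.22.

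Most genes for repressors of *Stra8* or *Meiosin* were not called. E2F6 and MGA are described as repressors of *Meiosin* in mouse embryonic stem cells. *Dmrt1*, a repressor of *Stra8* in spermatogonia, had a log2 fold change of 0.17 (SE 0.08, adjusted p = 0.205), and the related *Dmrtb1* was not called at 0.11 (SE 0.29). *Nanos2*, the other gene of that list, was below the filter. Of 16 subunits of PRC1.6, the Polycomb complex with E2F6 and MGA, 2 rose and 1 fell, with a median of 0.068. The gene that fell was *E2f6* itself, from 40.3 CPM in the null to 27.5 CPM in wild type at a log2 fold change of -0.55 (SE 0.09, adjusted p = 0.0104), and all 7 fits that left out a library called it, at -0.58 to -0.51. *Mga* was at 0.0088 (SE 0.10, adjusted p = 0.962). The 2 that rose, *L3mbtl2* at 0.36 and *Hdac1* at 0.35, were each called in 2 of the 7 fits. On log2(TPM + 1), none was called higher and 4 lower, with a median of -0.11, where all tested genes had a median of -0.23. On that scale 3.23% of all tested genes were called higher and 15.3% lower. With library size alone as scaling 1 rose, 1 fell and the median was -0.010, against -0.084 over all tested genes. Of 5 genes of the SCF ubiquitin ligase, which targets DMRT1, *Cul1* rose at 0.45 and *Fbxw11* fell at -0.29, each called in 1 of the 7 fits, and *Btrc*, *Skp1a* and *Rbx1* were not called, at 0.13, 0.12 and 0.020. The list median of 0.12 was -0.17 on log2(TPM + 1), against -0.23 over all tested genes, and there none was called higher and 1 lower. The RB family, whose member RB1 binds STRA8, had 0 of 3 genes called, with *Rb1* at -0.29 (SE 0.11, adjusted p = 0.105), *Rbl2* at -0.20 and *Rbl1* at 0.042. On log2(TPM + 1) 2 of the 3 were called lower. Their median there was -0.42, against -0.23 over all tested genes, and it was -0.20 in the TMM-scaled counts.

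In lists of axis and synapsis, recombination and S phase genes, larger shares than the 7.77% of all genes were called higher in wild type. Whether these genes respond to STRA8-MEIOSIN was not tested. In the list of chromosome axis and synapsis genes, 12 of 13 rose in wild type and none fell, with a median log2 fold change of 1.22, from 0.83 for *Syce3* to 2.27 for the cohesin gene *Rad21l*. The exception was *Rec8*, at 0.23 (SE 0.21, adjusted p = 0.481). Another gene of the list, *Six6os1*, was not found under that symbol. Of 22 recombination genes, 19 rose, with a median of 0.80, and *Spata22* was highest at 3.07 (SE 0.25, adjusted p = 0.00073), next to *Mei1* at 1.92. *Spo11*, *Rec114* and *Mnd1* were not called, at 0.49, 0.33 and 0.58. Of 15 S phase genes, 7 rose, with a median of 0.38 over the list. Among those that rose was the cyclin E gene *Ccne2* at 1.31 (SE 0.26, adjusted p = 0.018), and *Cdt1* was lowest of the list at -0.29 (SE 0.23, adjusted p = 0.406). These counts depended on single libraries, as did the count over all genes, whereas the medians moved less. Without *Meioc*-null replicate 3, where 0.961% of all tested genes were called in either direction, they were 8 for axis and synapsis, 8 for recombination and 0 for S phase, with medians of 1.25, 0.83 and 0.33. S phase had 3 called without wild-type replicate 2, wild-type replicate 3 or null replicate 2, where 2.17%, 2.02% and 2.59% of all tested genes were called, and recombination had 10 without wild-type replicate 3 and 11 without null replicate 2. Without wild-type replicate 1, where 15.9% of all tested genes were called, the 3 lists had 12, 19 and 7 called. Without null replicate 1, where 2112 of 13630 tested genes were called, they had 12, 18 and 10. On log2(TPM + 1) the 3 lists had 12, 13 and 6 called higher, with medians of 0.87, 0.55 and 0.13. The lists were fixed with results of these libraries known, so they are not independent evidence of a direction. Of the MEIOC complex, *Meioc* and *Ythdc2* rose at 0.76 and 0.73, each called in 2 of the 7 fits. *Meioc* is itself the gene targeted in the null pups. *Rbm46* was at 0.022 (SE 0.13, adjusted p = 0.927, edgeR quasi-likelihood test).

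**Figure D5:**
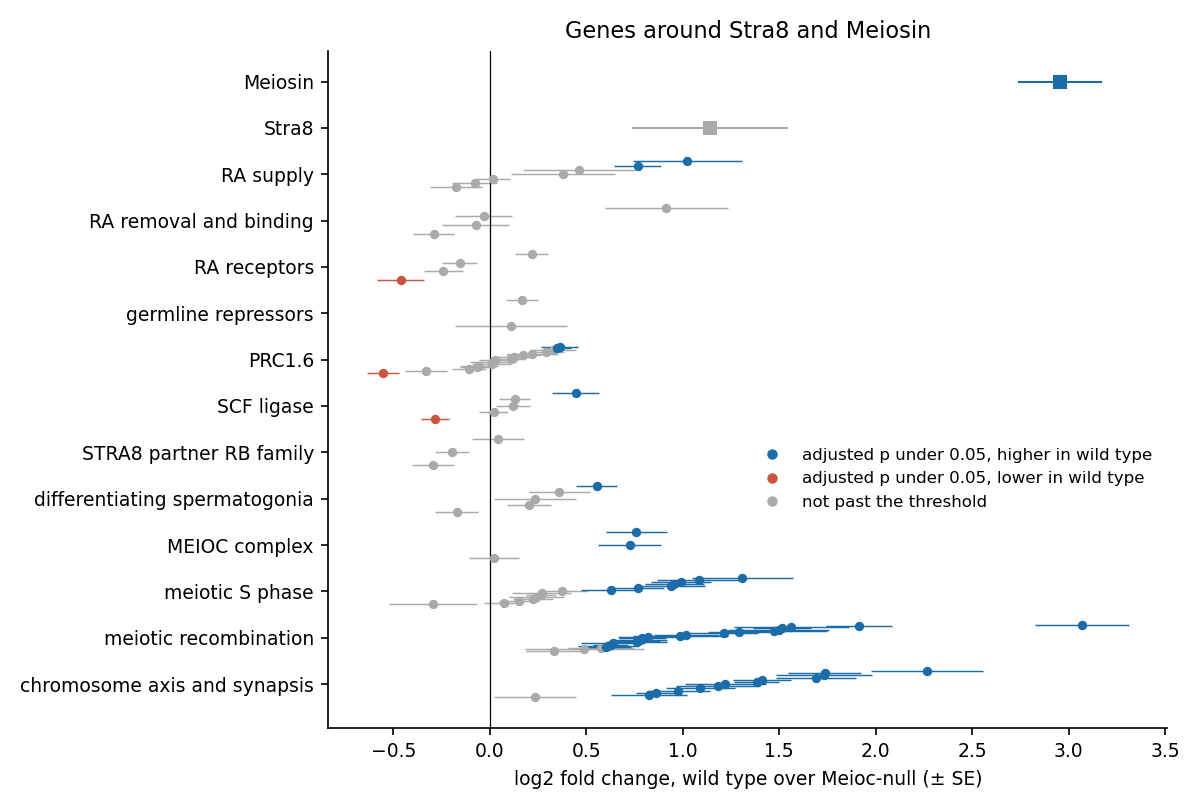
Log2 fold change (wild type over *Meioc*-null, ± SE) of *Meiosin* and *Stra8* (squares) and of each tested gene in 12 lists (circles), blue where higher and red where lower in wild type at an adjusted p under 0.05, grey where not past it. *Meiosin* at 2.95 lies beyond every listed gene but *Spata22* at 3.07, and *Stra8* at 1.14 has a wide error.

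Wild-type replicate 1, lowest in both *Stra8* and *Meiosin*, was also lowest of the wild-type pups in the summed CPM of the axis and synapsis list (2702 against 3708 to 4059 in the others and 1258 to 1553 in the null), of the recombination list and of the S phase list. Abundant genes weigh most in such sums. In wild type *Tex15* averaged 2352 CPM of a mean recombination sum of 4063 CPM. Among the null pups, replicate 1 had the highest *Stra8* at 158 CPM and the highest S phase sum, 1302 CPM against 971 and 1113 CPM, but its axis and synapsis sum of 1511 CPM and its recombination sum of 2290 CPM lay between those of the other two. Among differentiating spermatogonia genes, 1 of 5 was called, *Kit* at 0.55 (SE 0.11, adjusted p = 0.0175, called in 3 of the 7 fits), with a list median of 0.23. *Sohlh2*, *Rec8*, *Sohlh1* and *Ccnd2* were not called, at 0.36, 0.23, 0.20 and -0.17. Over all tested genes, 7.77% were called higher and 3.33% lower in wild type.

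Of all tested genes, 7.77% were called higher and 3.33% lower in wild type, and most cell markers were not called. The summed CPM of 5 germ cell markers was 1594 to 1731 in wild type and 1186 to 1294 in the null, with a median log2 fold change of 0.24. *Dazl* and *Mael* were called higher in wild type, at 0.58 and 0.36, whereas *Ddx4* was at 0.24 (adjusted p = 0.0813), *Tdrd1* at -0.24 (adjusted p = 0.148) and *Dnd1* at -0.76 (adjusted p = 0.0571). The markers thus did not move together. Without wild-type replicate 1, where 15.9% of all tested genes were called, they had 2 called higher and 2 lower. On log2(TPM + 1), where 3.23% of all tested genes were called higher and 15.3% lower, they had 1 called higher, 2 lower and a median of -0.030. *Dazl* made up 54.2% to 68.2% of the sum, and the other 4 markers summed to 534 to 576 CPM in wild type and 479 to 544 CPM in the null. Per estimated count of these markers, *Meiosin* stood at 0.0902, 0.132, 0.166 and 0.146 in wild-type replicates 1 to 4 and at 0.0269, 0.0230 and 0.0193 in null replicates 1 to 3. These values did not overlap, and the log2 difference was 2.51 (p = 0.0571, two-sided exact permutation test, the smallest p possible). *Stra8* on the same scale stood at 0.0791, 0.0859, 0.165 and 0.238 in wild type and at 0.125, 0.0739 and 0.0597 in the null, with a log2 difference of 0.64 (p = 0.286, two-sided exact permutation test). Per count of the 4 markers other than *Dazl*, the log2 difference was 2.80 for *Meiosin* (p = 0.0571) and 0.92 for *Stra8* (p = 0.171, two-sided exact permutation tests). Undifferentiated spermatogonia markers summed to 123 to 146 CPM in wild type and 161 to 261 CPM in the null, with 1 of 5 tested, *Zbtb16*, called lower in wild type at -0.86, a call that was held in 3 of the 7 fits, and *Ret*, *Etv5*, *Gfra1* and *Id4* at -0.54, -0.47, -0.14 and 0.15. *Pgk2*, *Ldhc* and *Acr*, markers of pachytene and later cells, were at or near 0 in both genotypes, and of the 3 genes of this list that were tested *Hspa2* was called higher in wild type, at 0.53 (adjusted p = 0.0335), in the fit to all libraries and in 1 of the 7 fits. *Ovol1* was at 0.74 (adjusted p = 0.133) and *Piwil1* at -0.70 (adjusted p = 0.106). Sertoli markers summed to 942 to 1021 CPM in wild type and 937 to 999 CPM in the null with 0 of 6 called (*Amh*, *Gata1*, *Rhox5*, *Cldn11*, *Wt1* and *Sox9*, at 0.41 to -0.34). Leydig markers (261 to 551 and 319 to 623 CPM), macrophage markers (66.6 to 74.3 and 72.3 to 88.2 CPM) and endothelial markers (53.7 to 65.9 and 60.5 to 72.5 CPM) had none called. The Leydig genes ranged from *Cyp17a1* at 0.61 through *Insl3*, *Cyp11a1*, *Dlk1* and *Hsd3b1* to *Star* at -1.10, the macrophage genes *Cd14*, *Itgam*, *Adgre1*, *Cd68* and *Csf1r* from 0.20 to -0.24, and the endothelial genes *Pecam1*, *Tm4sf1* and *Cdh5* from 0.17 to -0.30. Of 4 peritubular myoid markers *Des* was called lower, at -0.37 (adjusted p = 0.0493), a call that none of the 7 fits held, and *Cnn1*, *Acta2* and *Myh11* were at 0.16, 0.053 and -0.023. The part that shifts in germ cell make-up play in the *Meiosin* and *Stra8* differences was not tested.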

How the data were processed

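Bulk RNA-seq of 7 libraries was analysed. Per the labels and the methods, reads were trimmed with cutadapt 1.8 and pseudoaligned with kallisto 0.44.0 to GENCODE Basic vM15 (mm10). The authors deposited estimated counts per protein-coding transcript, not normalized across libraries, and TPM per transcript, recalculated over protein-coding transcripts. TPM keeps no depth, and a class of abundant short transcripts can lower the TPM of other genes. Whether this occurred in these libraries was not tested.

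Transcripts were matched by Ensembl identifier to GENCODE vM21 (GRCm38). Of 43139, 119 were unmatched (0.247% to 0.282% of counts) and were left out. Of the estimated counts above 0, 25.9% to 26.7% were whole to within 1e-06. Counts were summed by gene, rounded, TMM-normalized and tested with edgeR 4.0.16 in R 4.3.3 (quasi-likelihood test, Benjamini-Hochberg adjustment) where TPM was at least 1 in at least 3 of 7 libraries; a call is an adjusted p under 0.05. Transcripts were tested likewise. The gene edgeR test, tried on simulated counts for 13630 genes, recovered 97.2% of 108 genes changed by 1 on the log2 scale and 100% of 92 changed by 2, with 6 false calls. For 21920 transcripts it recovered 18.7% of 91 and 70.6% of 109. The simulation took the spread from its trend across features and placed changes only in well-counted features. The fitted biological coefficient of variation was 0.359 for *Stra8* and 0.188 for *Meiosin*, against a median of 0.104 over genes of 100 CPM or more. Recovery at the spread of these 2 genes was not simulated. Ratios and shares used two-sided exact permutation tests. Likeness used log2(CPM + 0.5). Floors of 3 counts cover counting error only.

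Alternatives were DESeq2 1.42.0, limma 3.58.1 on log2(TPM + 1) and log2(TPM + 0.1), RLE or no scaling, other filters, a replicate block, scaling to germ cell markers, estimated counts in place of TPM, and leaving out each library. The members, lists and tests were chosen with earlier results of these data known. The genes named are *Stra8*, *Meiosin*, *Meioc*, listed genes that were tested (all of lists of up to 7, otherwise the highest, the lowest and those described as regulators) and the 5 most alike by each measure; others in the text were chosen after their values were seen, and 1 listed gene is not reported here. Leave-one-out counts for the lists, the ratio by annotated length and the scaling without *Dazl* were added after the data were seen. Spike-ins were not used here.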

Additional observations from a re-analysis of the deposited data

How the results depend on the processing

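Relative to the results given above, *Meiosin* kept its direction under every alternative and its call under all but the scaling to germ cell markers, where the log2 difference was 2.51, or 2.80 without *Dazl*, and the exact permutation test cannot pass 0.05. *Stra8* kept its direction throughout, and its log2 fold change ranged from 0.72 to 1.53 with a library left out. It was past the threshold only without wild-type replicate 1. DESeq2 gave 1.13 (adjusted p = 0.143), and limma on log2(TPM + 1) gave 0.82 (adjusted p = 0.115). Replicate numbers were not treated as pairs, because deviations of same-numbered pups correlated at -0.044, -0.096 and -0.209 across genes, and none of the 3 wild-type pups with a numbered partner correlated best with it. With the replicate block, in which wild-type replicate 4 carries no information, *Stra8* was at 0.74 (adjusted p = 0.272), *Meiosin* at 2.86 (adjusted p = 0.00192, edgeR quasi-likelihood test, Benjamini-Hochberg adjusted) and the log2 ratio difference at -2.10 (exact p = 0.25), and 109 genes were called in place of 1513. Genes called numbered 2331 with DESeq2, 2522 on log2(TPM + 1), 2506 on log2(TPM + 0.1) and 131 to 2172 with a library left out; the cause was not tested. The *Meiosin* transcript was at 2.95 (adjusted p = 0.0654) with no TPM filter, where more transcripts were tested, and at 2.84 to 3.09 with a library left out. Depth did not limit either gene, but the 26 words that mark Stra8-202 limit what can be said of that form.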
